A study of Homo sapiens with 12 samples.

Results

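The regions described here were listed as open in the Y537S line and in no other line of the series: merged ATAC-seq peak regions on chromosomes 1 to 22 and X that held a peak in all 4 Y537S libraries and in none of the 8 other libraries. Peaks of all 12 libraries were joined where they overlapped by at least 1 bp, which gave 166523 regions, and 1083 of them (0.65%) met the rule. They made up 2.7% of the 40089 regions open in all 4 Y537S libraries, and the remaining 39006 of those were also open in at least 1 other library. The same rule found 5 K303R-only regions (0.003%) and 0 WT-only regions. By the rule they were open with and without Dox, that is, whether or not the receptor was induced. Membership rests on the peak calls themselves, so these counts are a description and carry no test.

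ATAC-seq marks accessible chromatin by the sites where a transposase can insert sequencing adapters. The parent cell line was MDA-MB-453, derived from a breast cancer with luminal features. Each of 3 lines made from it inducibly expressed 1 form of estrogen receptor alpha (ER): Y537S, K303R or wild type (WT). Each line was grown for 2 days and then treated for 2 more days. Treatments were doxycycline (Dox, 2 ug/mL, the inducer of the receptor), Dox with the estrogen estradiol (E2, 1 nM), or E2 alone. Untreated cells had the same 2 days of growth, and whether they were held for 2 more days is not given here. Each combination of ER form and treatment had 1 library, so the 4 Y537S libraries differ in treatment and are not replicates. The labels do not say whether a line is 1 clone, and the names of the files read like clone names.

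ER is a hormone-dependent transcription factor that binds DNA mostly at distal enhancers, often beside the pioneer factors FOXA1 and GATA3. The Y537S change lies in the ligand-binding domain and is known from endocrine-resistant breast cancers, where the receptor is active without hormone. K303R lies in the hinge of the receptor. In most cell types promoters of widely used genes stay accessible, and the sites that differ between lines of cells are mostly distal elements.

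The Y537S libraries stood apart in ways that bear on every count below. A summit pileup is the number of sequenced fragments stacked at the top of a peak, and over the 16630 regions open in all 12 libraries its median was 24 to 34 in the Y537S libraries and 8 to 19 in the WT and K303R libraries. Listed summits numbered 106291 to 133963 in Y537S libraries and 39522 to 102713 in the others. A tag in the peak names was shared by the 4 Y537S libraries and by no other library, and these names also held the word trypsin. What the tag stands for is not given here, so the Y537S line and whatever the tag marks cannot be told apart. As a check of the labelled cell type, all 14 luminal genes with a start in the promoter table, FOXA1, GATA3 and ERBB2 among them, had an accessible start in all 4 Y537S libraries. This held for 15 of 15 housekeeping genes, 18 of 18 stress genes and 62.4% of 15812 protein-coding genes. Of markers of other cell types it held for 6 of 15 neural, 5 of 12 basal, 4 of 12 mesenchymal, 1 of 10 blood cell (CORO1A) and 0 of 8 endothelial genes.

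Sequence was at hand for gene starts, in windows of 250 bases before to 50 bases after each RefSeq start (GRCh38.p14, the assembly family of hg38). Of the 1043 Y537S-only regions on chromosomes with such windows, 26 (2.49%, exact 95% interval 1.63% to 3.63%) had their summit in one, against 19.0% of 37289 other regions open in all 4 Y537S libraries. The 6 windows whose regions had the largest smallest −log10 q are printed 5′ to 3′ on the strand of the gene, because they are the best supported Y537S-only gene starts. They belong to STXBP6 (chr14:25032535-25032834, minus strand), LINC02182 (chr16:88194031-88194330, plus), PCDH15 (chr10:54801182-54801481, minus), VWC2L (chr2:214410804-214411103, plus), LINC01124 (chr2:170714518-170714817, minus) and MAP1S (chr19:17719230-17719529, plus). Capitals mark letters that match 1 of 8 short motifs searched on both strands. These are an estrogen response element, its single arm, and forkhead, AP-1, GATA, SP, E-box and TEAD motifs.
STXBP6: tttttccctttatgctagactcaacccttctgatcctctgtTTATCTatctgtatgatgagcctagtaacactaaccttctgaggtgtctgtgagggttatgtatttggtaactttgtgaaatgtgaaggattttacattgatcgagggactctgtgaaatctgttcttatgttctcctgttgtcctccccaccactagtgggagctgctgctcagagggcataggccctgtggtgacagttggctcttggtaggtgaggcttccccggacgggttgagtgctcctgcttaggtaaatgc
LINC02182: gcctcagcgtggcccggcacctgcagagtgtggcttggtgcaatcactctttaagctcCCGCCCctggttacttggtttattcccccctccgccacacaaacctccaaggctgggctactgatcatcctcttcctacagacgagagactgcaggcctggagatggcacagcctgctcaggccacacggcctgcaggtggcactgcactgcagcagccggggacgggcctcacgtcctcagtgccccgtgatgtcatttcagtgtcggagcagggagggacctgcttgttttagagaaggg
PCDH15: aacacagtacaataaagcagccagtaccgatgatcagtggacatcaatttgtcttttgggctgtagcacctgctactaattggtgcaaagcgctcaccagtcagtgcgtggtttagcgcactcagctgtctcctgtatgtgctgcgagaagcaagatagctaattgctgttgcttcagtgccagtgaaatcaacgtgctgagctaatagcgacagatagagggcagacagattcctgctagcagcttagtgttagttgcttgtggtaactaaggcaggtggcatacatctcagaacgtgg
VWC2L: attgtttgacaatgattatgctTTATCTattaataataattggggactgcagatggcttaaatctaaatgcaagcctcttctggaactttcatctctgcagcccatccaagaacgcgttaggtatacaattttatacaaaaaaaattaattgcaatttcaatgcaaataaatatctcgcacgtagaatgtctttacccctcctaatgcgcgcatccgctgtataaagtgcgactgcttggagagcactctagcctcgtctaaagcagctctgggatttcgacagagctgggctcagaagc
LINC01124: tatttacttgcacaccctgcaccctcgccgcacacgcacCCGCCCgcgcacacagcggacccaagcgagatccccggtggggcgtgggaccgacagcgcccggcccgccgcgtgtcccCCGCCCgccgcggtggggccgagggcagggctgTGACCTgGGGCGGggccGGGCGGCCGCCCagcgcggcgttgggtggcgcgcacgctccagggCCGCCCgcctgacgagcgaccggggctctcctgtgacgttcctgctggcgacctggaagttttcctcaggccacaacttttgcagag
MAP1S: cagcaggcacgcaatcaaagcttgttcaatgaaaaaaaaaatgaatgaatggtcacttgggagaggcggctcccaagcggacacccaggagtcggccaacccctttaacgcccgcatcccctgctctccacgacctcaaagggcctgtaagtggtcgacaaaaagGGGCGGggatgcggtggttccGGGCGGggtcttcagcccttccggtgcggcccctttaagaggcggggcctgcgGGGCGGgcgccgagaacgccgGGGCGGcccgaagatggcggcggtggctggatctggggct

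The STXBP6 window, upstream of a gene for a SNARE-binding protein, held a GATA match and its region had pileups, given here and below without scaling, of 15 with Dox, 11 with Dox+E2, 11 with E2 and 10 untreated. The PCDH15 window, at a start of a protocadherin gene known from sensory hair cells, held none of the 8 motifs, and its region had pileups of 18 with Dox, 18 with Dox+E2, 8 with E2 and 7 untreated. The VWC2L region, at a gene for a secreted protein, had 7 with Dox, 16 with Dox+E2, 13 with E2 and 7 untreated. The PCDH15 start was thus higher in both libraries with Dox, and the VWC2L start in both with E2. The LINC01124 window held a single arm of the estrogen response element and several SP letters, and its region had 8, 10, 7 and 13 in the same order of libraries. The MAP1S window, at the start of a gene for a microtubule-associated protein, held 4 SP matches, and its region had 7, 8, 7 and 10. These last 2 starts lay 10 bp and 101 bp from another merged region, whereas no merged region lay within 205801 bp of the PCDH15 one. Y537S-only regions at gene starts thus included close neighbours of other peaks and isolated ones.

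Motif letters were then counted over the 29 windows that hold a Y537S-only summit and over all 34789 windows of that length. The full estrogen response element (GGTCA, any 3 letters, TGACC) was in 0 of 29 windows and in 0.0575% of all windows. Its single arm (AGGTCA) was in 10.3% of the 29 windows and 13.8% of all windows. The GATA motif (AGATAA) was in 6.90% and 10.4%, and the forkhead motif (TGTTTAC) in 3.45% and 3.42%. The AP-1 motif (TGANTCA) was in 10.3% and 7.69%, the TEAD motif (GGAATG) in 10.3% and 14.1%, and the E-box (CACGTG) in 10.3% and 7.24%. The SP motif (GGGCGG) was in 55.2% and 44.9%, and the short CTCF core (CCCTC), not capitalised in the printed windows, in 86.2% and 71.2%. The 29 windows also had more G and C letters, with a median of 64.3% against 58.7%. All windows include starts that were not open in the Y537S libraries, and other open starts were not counted apart. The 29 windows belong to 26 regions, so some of them overlap and share letters. A match is a description of letters and not a bound site.

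Y537S-only regions were weak and narrow. Their median summit pileup was 8 with Dox, 8 with Dox+E2, 9 with E2 and 8 untreated, against 15, 15, 20 and 18 in the other regions open in all 4 Y537S libraries. After division by each library's median over the regions open in all 12, the mean level over the 4 libraries had a median of 0.306 for Y537S-only regions and 0.609 for the others. Their median width was 301 bp, against 772 bp, and 981 of them (90.6%) had a single summit in every Y537S library. Width is that of the merged region. The others also join peaks of WT or K303R libraries, which can widen them, so the rule itself bears on the difference in width. It bears on the difference in strength as well. A strong region is more likely to have a listed peak in some WT or K303R library, and is then left out. The smallest of the 4 deposited −log10 q values reached 10 in 43 Y537S-only regions (3.97%) and in 58.0% of the others. In 353 regions (32.6%) the smallest pileup was 4 or 5, where 4 was the lowest pileup listed in any Y537S library.

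**Figure D1:**
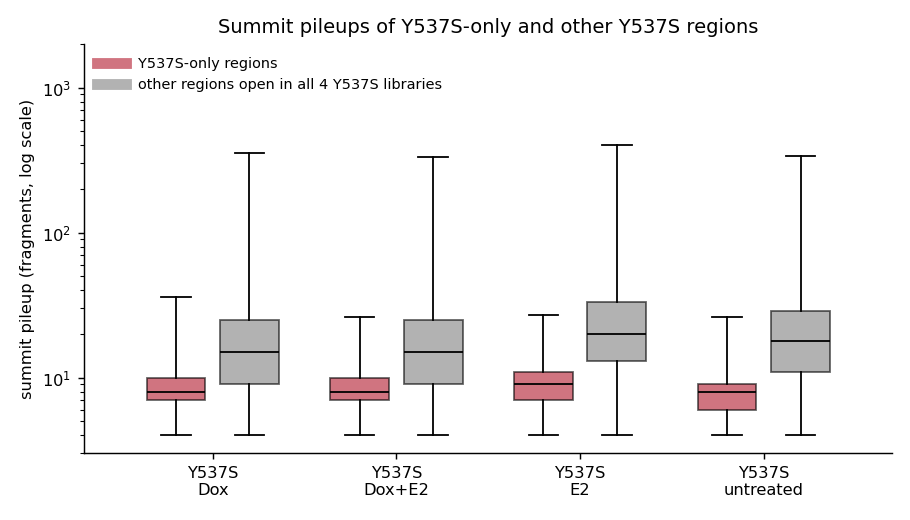
Summit pileup in fragments (log axis) in each of the 4 Y537S libraries for the 1083 Y537S-only regions (red) and the 39006 other regions open in all 4 (grey). Boxes span the quartiles, the line is the median and whiskers reach the lowest and highest region. The red medians are 8 or 9 in every library and the grey ones 15 to 20.

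The level of the Y537S-only regions was close to the lowest pileup listed in several other libraries. Scaled to each library by its always-open median, the typical Y537S-only region would have a pileup of 5.21 in K303R cells with Dox+E2, 4.90 in K303R with Dox, 4.59 in K303R with E2 and 3.37 in untreated K303R. It would have 5.21 in WT cells with Dox, 3.98 in WT with Dox+E2, 5.82 in WT with E2 and 2.45 in untreated WT. The lowest pileup listed in those libraries was 3 to 5. The scaled level reached that limit for 1080 regions in K303R with Dox+E2 and 1076 in K303R with Dox, but for 75 in untreated K303R. It did so for 1044 in WT with E2, but for 222 in untreated WT. The limit was reached in at least 1 of the 8 libraries for all but 3 regions, in 5 libraries for 267, in 6 for 312 and in 7 for 147. It reached the limit in all 8 libraries for 75 regions (6.93%), and 2 times the limit in all 8 for 0 regions (exact 95% upper bound 0.340%). A region without a listed peak in a library is not shown to be closed there. The always-open median was 66.0 to 102 times the background in Y537S libraries and 24.9 to 88.6 times in the others.

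**Figure D2:**
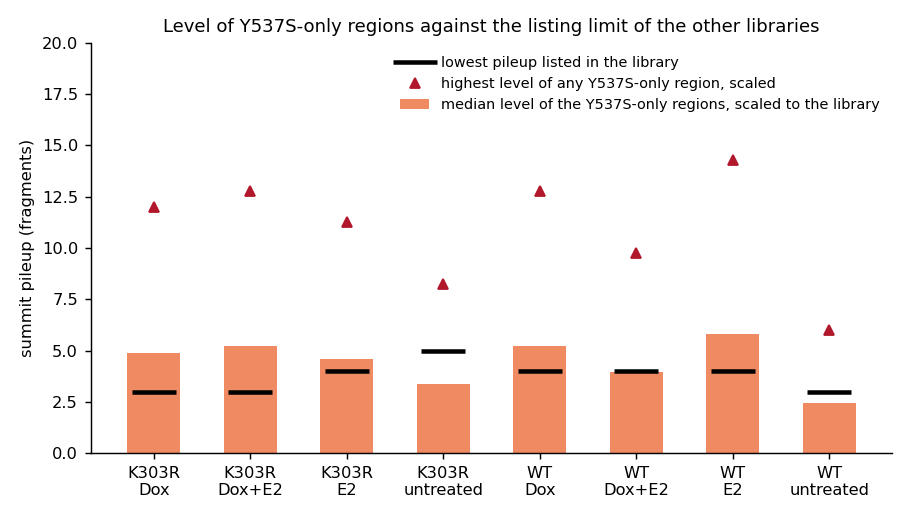
Pileup that Y537S-only regions would have in each K303R and WT library at an equal scaled level. Bars show the median region, triangles the highest region, and black lines the lowest pileup listed in that library. The bar lies under the line in both untreated libraries and, by a narrow margin, in WT with Dox+E2.

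The count moved with the calling threshold, and so did the regions in it. Among peaks with a −log10 q of at least 5 in every library the rule gave 1756 Y537S-only regions, of which 628 overlapped the 1083, and at 10 or more it gave 1864, of which 43 did. These overlaps are fixed by the filter, since 628 and 43 of the 1083 had a smallest −log10 q of at least 5 and 10. They restate how weak the regions were and are no separate measure of stability. With every list shortened to the 39522 strongest summits, the rule gave 42 Y537S-only, 35 K303R-only and 8 WT-only regions, and 0 of the 42 overlapped the 1083. Shortening drops the weakest summits first, so it also removes weak regions by construction. Leaving out untreated Y537S raised the count to 1787, Y537S with Dox+E2 to 1681, Y537S with Dox to 1658 and K303R with Dox+E2 to 1650. Without both untreated WT and untreated K303R, the libraries with the lowest pileups, it was 1191.

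Just outside the rule lay 2133 regions with a peak in exactly 3 Y537S libraries and no other. Of these 555 lacked the Dox library, 589 Dox+E2, 300 E2 and 689 the untreated one. Another 1750 regions were open in all 4 Y537S libraries and in exactly 1 other. That 1 library was most often K303R with Dox+E2 (566 regions) and least often untreated K303R (20). The median scaled level was 0.306 for Y537S-only regions, 0.200 for those in 3 libraries and 0.328 for those with 1 other, where the library without a peak counts as 0 for those in 3 libraries.

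The 10 regions with the largest smallest −log10 q show what the best supported members look like. The first, inside PTPRM, a receptor tyrosine phosphatase of cell contacts, lay at chr18:8162792-8163215 and had pileups of 13 with Dox, 13 with Dox+E2, 24 with E2 and 24 untreated. The second, inside BBS9, a subunit of the BBSome of cilia, lay at chr7:33191411-33191700 and had 24, 24, 17 and 12 in the same order. These first regions were opposite in order, with the PTPRM region higher without Dox and the BBS9 region higher with it. An intergenic region at chr7:19442223-19442507, 253 kb from the end of the RNA polymerase I subunit gene POLR1F, had 22, 16, 19 and 12. One at chr14:59055489-59055956, 133 kb from DAAM1, a formin of WNT signalling, had 22, 15, 12 and 17. The region inside ANKRD44 at chr2:197198790-197199215 had 19, 12, 16 and 23. None of these 3 separated its Dox libraries from the others in pileup as recovered. After scaling by the always-open median the POLR1F and DAAM1 regions did, with 0.917 and 0.667 with Dox against 0.559 and 0.387 without near POLR1F, and 0.917 and 0.625 against 0.353 and 0.548 near DAAM1.

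The region inside PELI2, an E3 ubiquitin ligase of innate immune signalling, was the widest of the 10 at 1169 bp and lay 2.07 kb from a gene start, with pileups of 15 with Dox, 12 with Dox+E2, 25 with E2 and 18 untreated. The region inside the zinc finger gene ZNF69 had 12, 12, 15 and 15. The region inside PAX8, a transcription factor of thyroid, kidney and the female tract, had 12, 12, 17 and 11. The remaining 2 were intergenic, 197 kb from PXDNL and 75.4 kb from HNMT, the gene of a histamine-degrading enzyme, and had 16, 20, 18 and 11 and then 14, 20, 18 and 11. At their scaled level all 10 would have reached the lowest listed pileup in each of the 8 other libraries. At the other end of the ranking the region inside DNAI1, a dynein gene of cilia, had 5, 4, 6 and 7, and the one 124 kb from the homeobox gene MSX2 had 5, 4, 9 and 4.

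Most Y537S-only regions were distal. A summit within 1 kb of either end of a protein-coding gene was found in 67 of 1083 (6.19%, exact 95% interval 4.83% to 7.79%), against 27.1% of the other regions open in all 4 Y537S libraries. A summit within 1 kb of a listed transcription start was found in 41 of 1043 (3.93%), against 24.7%. The median distance to a listed start was 56.1 kb, against 19.2 kb, and 35.6% lay over 100 kb from any listed start, against 19.0%. Starts were listed for 15812 of 19974 protein-coding genes, which can lengthen these distances in both sets. By contrast 524 regions (48.4%) lay inside a protein-coding gene, close to the 49.2% of the others, and they were spread over 490 genes. Outside genes and over 100 kb from any gene end lay 193 regions (17.8%), against 7.85%. Read the other way, the Y537S-only share of all regions open in the line was 0.630% within 1 kb of a gene end and 3.45% farther away. It was 4.97% over 100 kb from a listed start. Strength differed between the sets, so regions of like level were also compared. Among regions with a scaled level between the quartiles of the Y537S-only set, 30 of 541 Y537S-only regions (5.55%, 3.77% to 7.82%) and 669 of 4976 others (13.4%, 12.5% to 14.4%) lay within 1 kb of a gene end.

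Neighbouring regions were farther away than for the others open in all 4 Y537S libraries. The nearest other merged region lay at a median of 4.78 kb, against 1.55 kb, and was within 1 kb for 244 Y537S-only regions (22.5%, exact 95% interval 20.1% to 25.1%), against 43.3% of the others. Another region of a WT or K303R library lay within 1 kb of 141 (13.0%), against 34.3%, and none lay within 10 kb of 524 (48.4%), against 23.9%. Another region open in all 12 libraries lay within 5 kb of 89 (8.22%), against 18.3%. Another Y537S-only region lay within 50 kb of 75 (6.93%). The rule keeps Y537S-only peaks from overlapping a WT or K303R peak, while every region of the comparison set holds one, which bears on these distances. The sets also differ in level and in distance from gene starts, and neighbours were not compared at like level.

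The 5 best supported regions at gene ends illustrate the proximal minority. The region at DNAH10, an axonemal dynein, had pileups of 24 with Dox, 12 with Dox+E2, 17 with E2 and 10 untreated, and its summit was 0.759 kb from the gene start. Those at LIX1, SURF6 (nucleolar ribosome assembly) and B3GNT7 (a glycosyltransferase) spanned a smaller range of pileups, with 12, 11, 13 and 10 at LIX1, 10, 10, 11 and 10 at SURF6 and 11, 10, 9 and 8 at B3GNT7. The region at INO80E, a subunit of the INO80 chromatin remodeller, had 21, 9, 9 and 16, the higher values being those of both libraries without E2. At LIX1, SURF6, INO80E and B3GNT7 the nearest listed start of a protein-coding gene was 4.68 to 40.4 kb away. Not every gene had a listed start, so which end of the gene lay there was not determined.

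Within the Y537S line the smallest of the 4 pileups of a Y537S-only region had a median of 6 and the largest a median of 11. With pileups scaled by the always-open median, the ratio of the mean with Dox to the mean without had a median of 1.35 in Y537S-only regions and 1.11 in the others. It was at least 2 in 134 Y537S-only regions (12.4%), against 8.77% of the others, and at most 0.5 in 10 (0.923%), against 7.03%. This direction depends on the scaling. The always-open median itself was 24 in both libraries with Dox, against 34 and 31 without. With pileups divided by each library's background instead, the median ratio was 0.924 against 0.760, with 23 regions at 2 or more (2.12%, against 3.01%) and 42 at 0.5 or less (3.88%, against 18.3%). Under both scalings the Y537S-only regions had the higher median ratio and the smaller share of low ratios. Among regions of like level the medians were 1.36 and 1.12 with the first scaling and 0.930 and 0.764 with the second. No peak under 4 fragments is listed in a Y537S library, which limits how far a weak region can fall, and 2 libraries against 2 cannot reach p = 0.05 in an exact permutation test.

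Single regions differed more widely. A region 32.6 kb from TEX36 had pileups of 36 with Dox and 25 with Dox+E2, against 7 with E2 and 8 untreated. One inside CACNA1C, an L-type calcium channel gene, had 18 and 22 with Dox, against 4 and 6 without. One at the start of PLBD1 had 11 and 14 with Dox, against 4 and 4 without, and one 13.7 kb from FRMD6 had 16 and 23, against 5 and 6. In these 4 regions both libraries with Dox exceeded both without, at ratios of 5.48, 5.36, 4.22 and 4.77, and each remained above 2 with background scaling. In the opposite direction a region inside LIX1 had 6 and 5 with Dox, against 24 and 19 without. One inside AZIN2, a regulator of polyamine synthesis, had 5 and 5 with Dox, against 25 and 13, one inside TNRC18 had 6 and 6, against 21 and 21, and one inside SYN3, a synapsin gene, had 5 and 7, against 20 and 20. A region 10.3 kb from HAS2, the gene of a hyaluronan synthase, had 6 and 8, against 25 and 26. The LIX1 region lay about 2 kb from the LIX1 gene-end region above, which did not share its order. These extremes were picked by their ratio from 1083 regions with 1 library a treatment.

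The median response to E2 was small, and ratios beyond 2 in either direction were a few regions but a larger share than in the others. The ratio of the mean with E2 to the mean without had a median of 1.02 in Y537S-only regions and 1.02 in the others. It was at least 2 in 13 regions (1.20%, exact 95% interval 0.641% to 2.04%), against 0.313% of the others, and at most 0.5 in 10 (0.923%, 0.444% to 1.69%), against 0.215%. With background scaling these were 7 regions (0.646%), against 0.192%, and 13 regions (1.20%), against 0.387%. Weaker peaks rest on fewer fragments, and the part of that in the wider spread was not tested. The single regions named next were picked by their ratio from the stronger regions, as for Dox. The regions with the largest ratios lay 286 kb from BMP4, a secreted morphogen, with 19 with E2 and 16 with Dox+E2, against 6 with Dox and 7 untreated, and 0.919 kb from the kinesin gene KIFC3, with 17 and 17, against 6 and 7. The region inside the homeobox gene ALX4 had 21 and 12 with E2, against 6 and 7. In these 3 both libraries with E2 were above both without. Among the lowest ratios, the region inside GPR107 had 5 and 4 with E2, against 16 and 9, and the one inside FFAR1, a fatty acid receptor gene, had 7 and 5, against 12 and 11. The highest scaled pileup was in the Dox library for 464 Y537S-only regions (42.8%, against 31.5% of the others), in Dox+E2 for 368 (34.0%, against 28.4%), in E2 for 155 (14.3%, against 22.3%) and in the untreated library for 96 (8.86%, against 17.9%). With background scaling it was in Dox for 27.5% (against 17.0%), in Dox+E2 for 16.4% (against 8.60%), in E2 for 31.2% (against 40.01%) and in the untreated library for 24.8% (against 34.4%), so which library was most often highest depends on the scaling.

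**Figure D3:**
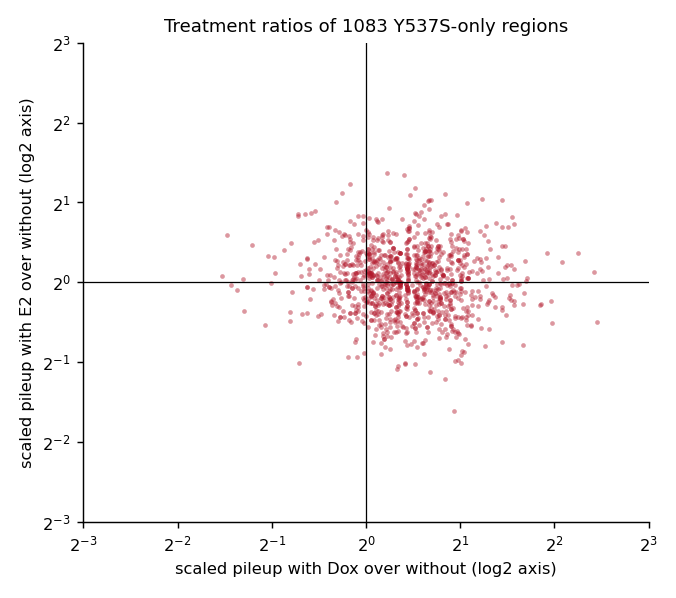
Ratio of scaled pileups with Dox to without (horizontal) and with E2 to without (vertical), on log2 axes, for the 1083 Y537S-only regions, with 1 point a region. Points are centred near 1.02 on the E2 axis and are shifted to the right on the Dox axis (median 1.35), a shift that falls to a median of 0.924 with background scaling.

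Genes around the regions were counted within the gene span and 50 kb on either side. At least 1 Y537S-only region was near 1521 of 19974 protein-coding genes (7.61%), 13 genes had 3 or more and 1 had 4. That gene was RGS6, a regulator of G protein signalling, where 4 of 15 regions open in all 4 Y537S libraries were Y537S-only. Their pileups were 8, 10, 15 and 11 at the first, in the order Dox, Dox+E2, E2 and untreated, then 16, 8, 9 and 9, 7, 11, 11 and 9, and 13, 9, 7 and 7. No library was highest at all 4 of them. The neighbouring genes IL1F10, IL36B and IL36RN of the interleukin 1 family shared the same 3 regions among 4 open ones. RIOK2, a kinase of ribosome maturation, had 3 of 4, among them both LIX1 regions above. Genes with a Y537S-only region were longer, with a median span of 37.6 kb against 24.2 kb over all protein-coding genes, and a long gene has more room for a region.

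Of 18 gene lists, 341 genes in all, 33 genes (9.68%) had a Y537S-only region, against the 7.61% of all genes. The list of known estrogen targets had 0 of 30, with 147 regions open in all 4 Y537S libraries in its windows. It had 0 with windows of 20 kb, 1 with 100 kb, and 3 among peaks with a −log10 q of at least 5. Androgen response had 3 of 20, among them STEAP4, a metalloreductase gene, with pileups of 12 with Dox, 6 with Dox+E2, 7 with E2 and 6 untreated at its region, so the Dox library was the highest. The luminal list had 1 of 20, GATA3, a pioneer factor of luminal cells, with 3 Y537S-only regions among 12 open ones. All 3 lay inside the gene, with 6, 11, 11 and 8 at the strongest and 9, 7, 6 and 4 at one of its starts, which is 186 bp from another merged region.

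Genes of neural adhesion and guidance and the cadherins had the largest shares. The neural list had 7 of 20: the synaptic adhesion gene NRXN3 and the Slit receptor ROBO2 with 2 regions each, and CADM2, CNTN4, NCAM2, the netrin receptor DCC and the transcription factor NEUROD1 with 1 each. At CNTN4 the pileups were 14 with Dox, 8 with Dox+E2, 13 with E2 and 19 untreated, and at NEUROD1, 34.7 kb beyond the gene, 8, 8, 8 and 10. These 9 regions were 10.5% of the 86 regions open in all 4 Y537S libraries in the windows of the list, against 2.7% in all. The cadherin list had 6 of 22, with CDH6, CDH8, CDH18, CDH19, PCDH15 and PCDH17 at 1 region each, or 11.5% of 52 open regions. At CDH6 the pileups were 8, 11, 15 and 9 and at CDH18 they were 8, 8, 14 and 11, and the E2 library was highest in pileup as recovered. Scaled, the CDH6 region was slightly higher with Dox+E2 (0.458) than with E2 (0.441). The median span was 632 kb for the neural genes and 201 kb for the cadherins. The Y537S-only share was also higher far from listed gene starts in general (4.97% over 100 kb away), and these lists were not compared with genes of equal length.

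The other lists were at or below a few genes. Basal markers, mesenchymal markers, cancer-testis antigens and stress response genes each had 0 of 20. Among peaks with a −log10 q of at least 5 they had 3, 1, 1 and 2, and with windows of 100 kb 0, 1, 0 and 1. AP-1 had 2 of 15 (JUNB and BATF2), interferon response 2 of 20 (IFI44 and IFI44L, 1 shared region), WNT 3 of 22 (FZD1, LEF1 and LGR4), receptor tyrosine kinases 2 of 27 (ERBB4 and ROR2), drug transporters 1 of 12 (ABCG2), cell cycle 1 of 17 (MYCN) and housekeeping genes 2 of 19 (GUSB and PPIA). Blood cell markers had 2 of 15 (PTPRC and TYROBP) and endothelial markers 1 of 12 (CDH5). The region near CDH5, 41.7 kb beyond the gene, was among the better supported ones with 11, 10, 13 and 15 in the order Dox, Dox+E2, E2 and untreated. The ROR2 region, 46.4 kb beyond that receptor gene, had 14 with Dox and 12 with Dox+E2, against 6 with E2 and 5 untreated.

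Y537S-only regions lay on all 23 chromosomes, with the largest counts on chromosome 2 (109, or 10.1%) and chromosome 1 (96). Relative to the regions open in all 4 Y537S libraries, their share was highest on chromosome 18, with 40 of 694 regions (5.76%, exact 95% interval 4.15% to 7.77%) and a share ratio of 2.13. Chromosome 21 followed with 18 of 418 and a ratio of 1.59, and chromosome 4 with 58 of 1535 and 1.40. The ratio was lowest on chromosome 6, with 18 of 1724 (1.04%, 0.620% to 1.65%) and a ratio of 0.386, then on chromosome 22 with 18 of 1162 and 0.573 and on chromosome 1 with 96 of 4842 and 0.734. Regions just outside the rule gave 1.55 on chromosome 18 and 0.571 on chromosome 6 where 1 other library was open, and 1.52 and 0.610 where 3 Y537S libraries were. On chromosome 21 they gave 0.932 and 0.854, on the other side of 1. Against chromosome length the ratio was 0.288 on chromosome 6 and 1.36 on chromosome 18, while those of chromosomes 4, 1 and 22 changed side, at 0.833, 1.05 and 1.23.

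**Figure D4:**
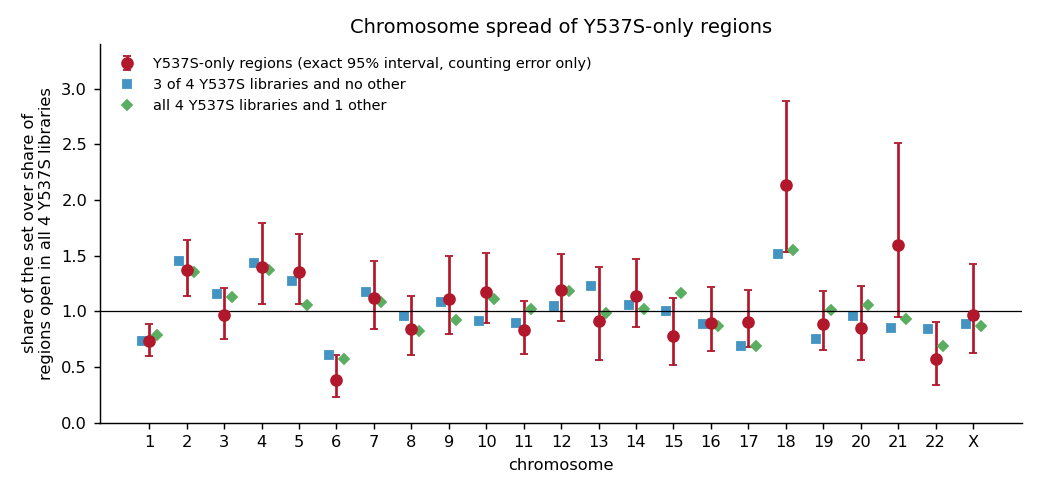
Share of each region set on a chromosome divided by the share of all regions open in all 4 Y537S libraries there. Red points are the 1083 Y537S-only regions with exact 95% intervals that cover counting error only, blue squares regions in 3 Y537S libraries and no other, green diamonds regions in all 4 and 1 other. Chromosome 18 is highest at 2.13 and chromosome 6 lowest at 0.386, and both other sets lie on the same side of 1 there.

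A measure that shares no region with the members was the signal of the 16630 regions open in all 12 libraries. The share of that signal on each chromosome was compared between the 4 Y537S and the 8 other libraries by a two-sided exact permutation test over 495 arrangements, with Benjamini-Hochberg adjustment over 23 chromosomes. On 8 chromosomes the adjusted p was under 0.05, 4 lower (17.4%) and 4 higher (17.4%) in Y537S. Chromosome 6 carried 3.58%, 3.54%, 3.59% and 3.64% of the signal in Y537S libraries with Dox, Dox+E2, E2 and untreated, against 4.67% to 4.83% in the WT and K303R libraries. Every Y537S library was below every other, the difference was −0.41 on the log2 scale, and the permutation p was 0.00202, the smallest possible here (adjusted 0.00929). Chromosome 14 carried 5.84% ± 0.0298 in Y537S (SD, n = 4) and 5.07% ± 0.116 in the others (SD, n = 8), a difference of 0.20 (exact permutation, adjusted p = 0.00929). The 4 Y537S libraries differ in treatment, are of the same line and share the peak-name tag. They are not replicates, so n and the arrangements count libraries and not independent lines. Any steady offset of that line or tag could reach the smallest p. Whether the ER form, the line or the tag accounts for these differences was not tested. More copies of a chromosome and more signal per copy cannot be told apart in peak lists.

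The remaining differences past the threshold were smaller or less clear-cut. Chromosome 19 was higher by 0.25 (exact permutation, adjusted p = 0.0266), and its share was 5.03% and 5.06% in the Y537S libraries with Dox, against 4.23% and 4.41% in those without. The same order with Dox held in the other lines, at 4.20% and 4.27% against 3.901% and 3.84% in K303R and 4.10% and 4.29% against 3.41% and 3.55% in WT, and Y537S was above both lines in each of the 4 treatments. Chromosomes 22 and 17 were higher by 0.09 and 0.08, and X, 7 and 4 were lower, at −0.10, −0.07 and −0.05. Without untreated K303R the differences on chromosomes 4, 17 and 19 had an adjusted p of 0.0610 in the same test, and 5 chromosomes remained under 0.05. On chromosome 18, where the Y537S-only share was highest, the signal of always-open regions was 1.02% ± 0.0376 in Y537S (SD, n = 4) and 1.04% ± 0.0209 in the others (SD, n = 8; exact permutation, adjusted p = 0.267). When ER forms were rearranged only within each treatment (81 arrangements, smallest possible p 0.0123), 9 chromosomes had an adjusted p under 0.05 in the exact permutation test. They included all 8 above and chromosome 2, lower by a log2 difference of −0.04 (exact permutation, adjusted p = 0.0316). Chromosomes 9 and 16 were also above both other lines in all 4 treatments but did not pass (exact permutation, adjusted p = 0.0568 and 0.0774). Libraries of 1 line share a culture, and the Y537S libraries also share the peak-name tag. These p-values therefore measure the spread between these libraries and no more.

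**Figure D5:**
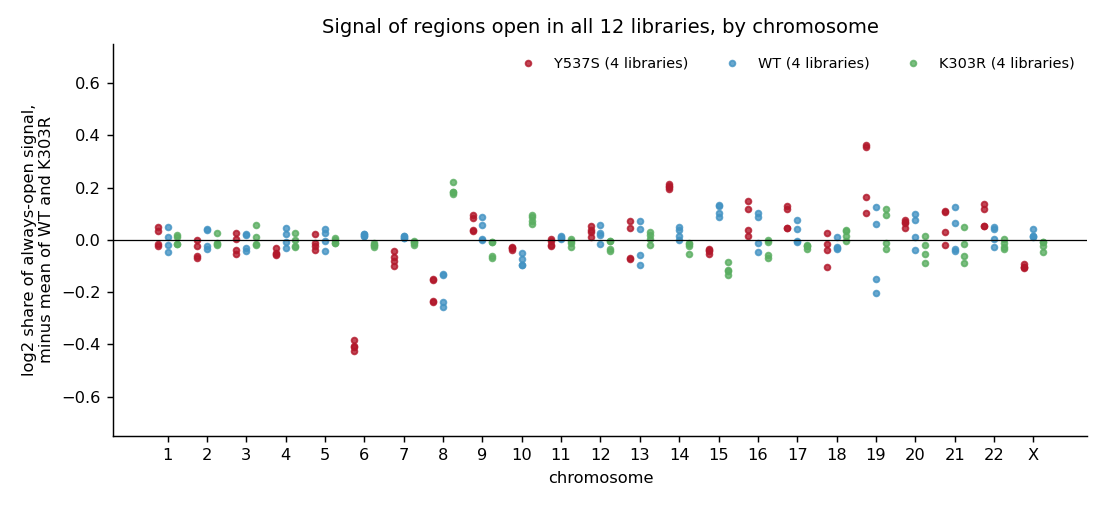
Log2 share of the signal of regions open in all 12 libraries on each chromosome, minus the mean of the 8 WT and K303R libraries, with 1 point a library. The 4 Y537S libraries (red) lie together at about −0.41 on chromosome 6 and 0.20 on chromosome 14, apart from all others. On chromosome 8 the K303R libraries are the ones that stand apart.

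Signal and Y537S-only share were then set side by side in 145 bins of 20 Mb with at least 20 always-open regions each. On chromosome 6 all 9 bins were below every other library, at −0.49 to −0.35, and their Y537S-only share of open regions was 0% to 2.44%. On chromosome 14 all 5 bins were above, at 0.16 to 0.27, with shares of 1.84% to 4.03%. Chromosome 2 was split. Its stretches below join neighbouring bins with like signal differences, so their borders were not set before the data were seen. From 0 to 40 Mb both bins overlapped the other libraries, at −0.05 and 0.01, and 11 of 535 open regions (2.06%, exact 95% interval 1.03% to 3.65%) were Y537S-only. From 40 to 120 Mb all 4 bins were below every other library, at −0.30 to −0.20, and 17 of 996 open regions (1.71%, exact 95% interval 0.997% to 2.72%) were Y537S-only. From 120 to 220 Mb the 5 bins were at 0.10 to 0.40, 4 of them above every other library, and 68 of 1074 (6.33%, 4.95% to 7.96%) were Y537S-only. From 220 to 240 Mb the difference was −0.01, with 12 of 278 (4.32%, 2.25% to 7.42%). Of the best supported regions named above, those at HNMT and ANKRD44 lay in the stretch from 120 to 220 Mb. The one inside PAX8 lay in the stretch from 40 to 120 Mb. The bin from 120 to 140 Mb had the largest positive signal difference of the 145 bins and 18 Y537S-only regions of 196 (9.18%).

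In the 18 bins below every other library, 1.75% of open regions were Y537S-only, in the 13 bins above every other library 3.17%, and in the 114 bins where libraries overlapped 2.72%. Without chromosomes 2 and 6 these shares were 3.17%, 2.44% and 2.70%, so the order rests on those chromosomes. Across the 23 chromosomes Spearman's rho between share ratio and signal difference was −0.08, and across the 145 bins 0.09, both as descriptions since chromosomes share the libraries. On chromosome 18 none of the 4 bins stood apart, at −0.13 to 0.10, and their Y537S-only share was 2.90% to 10.8%.

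Densely packed stretches were few. Of 1 Mb windows, 685 held 1 Y537S-only region, 145 held 2, 26 held 3, 5 held 4 and 2 held 5. The fullest were the window at 135 Mb of chromosome 8 around KHDRBS3, an RNA-binding protein gene, with 5 of 19 open regions, and the one at 72 Mb of chromosome 14 around RGS6 and DPF3, a chromatin remodelling subunit gene, with 5 of 22. On chromosome 5 at 9 Mb, around the semaphorin gene SEMA5A and the taste receptor gene TAS2R1, 4 of the 5 regions open in all 4 Y537S libraries were Y537S-only. The windows at 8 Mb of chromosome 18 (PTPRM, 4 of 11) and at 113 Mb of chromosome 2 (IL1F10, IL36B and PAX8, 4 of 24) followed.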

How the data were processed

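Each of the 12 libraries has 1 deposited peak list. The submitters' processing notes name MACS2, Bowtie2, SAMtools, Picard, FastQC and the hg38 build. The version and settings of each tool, with any correction for the transposase offset, were not given in the sources used here. The deposited score, the fold enrichment (a ratio) and the −log10 p and −log10 q values are the authors' values for single peaks. The fold is the summit pileup plus 1 over the background plus 1, per the values of the deposited lists, so pileup and background were recovered (pileups whole to within 0.000715). Background, used here in place of depth, was 0.304 to 0.364 in Y537S libraries and 0.143 to 0.442 in the others. Total reads are not used here.

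Peaks were merged with Python 3.11.15, numpy 2.4.6 and pandas 2.3.3. Exact (Clopper-Pearson) 95% intervals from SciPy 1.17.1 cover counting error only. Gene spans (GRCh38.p14) and starts were those of RefSeq tables. Starts on chromosome 8 are not used here, and starts were listed for 15812 of 19974 protein-coding genes. No genome sequence was used. The members, gene lists and rules were chosen with earlier results of these data known. The rule for named regions takes the 10 with the largest smallest −log10 q, the 5 strongest at gene ends, up to 8 in promoter windows (6 printed), the 5 highest and lowest Dox ratios and 3 E2 ratios among the stronger members, the genes, 1 Mb windows and chromosomes with most and fewest members, the weakest 3, and every list gene with a member, of which examples are given; a few such genes are not reported here. Alternatives were stricter −log10 q (5 and 10), equal list length, 501 bp summit windows, 50% cover, single libraries left out, a 2500 bp distance, gene windows of 20 and 100 kb, background scaling, chromosome length and median pileups. The 20 Mb bins, start distances, the listing limit, regions of like level, the highest library with background scaling, neighbours of the other regions, signal relative to the median chromosome and arrangements within treatment were added after seeing the data. The counting and the chromosome test were tested on simulated peak lists. Those lists had libraries of equal depth and line-only regions well above the pileup limit, so they do not cover weak regions near the limit.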

Additional observations from a re-analysis of the deposited data

How the results depend on the processing

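No paired analysis was possible because each combination of ER form and treatment has 1 library and no replicate numbers pair them. The Y537S-only count of 1083 was 1756 at a −log10 q of 5, 1864 at 10, 42 at equal list length and 1714 when peaks had to cover 50% of a region, and 1102 to 1787 with 1 library left out. The K303R-only count of 5 was 35 at equal list length, 8 with 50% cover and 5 to 117 with 1 library left out, 117 being without untreated K303R. The WT-only count of 0 was 1 at a −log10 q of 5, 8 at equal list length and 0 to 7 with 1 library left out. The share near gene ends (6.19%) was 2.38% at equal list length, 11.9% within 2500 bp, 3.93% for transcription starts and 5.98% to 7.96% with 1 library left out. The share inside genes was 42.9% at equal list length and 47.9% to 49.2% with 1 library left out. With background scaling, 2.12% of regions had a Dox ratio of at least 2 and 3.88% of at most 0.5, and the median was 0.924. With scaling by the always-open median the same 3 values were 12.4%, 0.923% and 1.35. In that scaling, with 1 Y537S library left out, they were 15.4% to 18.01%, 1.02% to 1.66% and 1.34 to 1.40. At equal list length the chromosome share ratio was 0 on chromosome 6, 0.796 on chromosome 4 and 5.92 on chromosome 21. Against chromosome length it was 0.833 on chromosome 4, 1.05 on chromosome 1, 1.23 on chromosome 22 and 1.36 on chromosome 18. The number of chromosomes with an adjusted p under 0.05 in the exact permutation test (8) was 5 with median pileups, 5 without untreated K303R and 5 to 9 with 1 library left out, 7 relative to the median chromosome and 9 with arrangements within treatment. Genes of the lists with a member (33) were 23 to 47 under 3 alternatives, while the share over all protein-coding genes (7.61%) was 4.89% to 12.6%. Where the construction of an alternative does not show the cause, the cause was not tested. A pileup limit of 3 to 5 fragments, 1 library a treatment and a peak-name tag shared only by the Y537S libraries limit every count.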
